A study of Homo sapiens with 4 samples.

Results

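Expression of the EGF receptor gene EGFR, the EGFR ligand genes AREG and EREG, and 7 genes whose transcripts are widely read as a measure of ERK activity (DUSP4, DUSP6, SPRY2, SPRY4, ETV4, ETV5 and PHLDA1) was followed upon silencing of APC. The 10 genes were chosen by name, with no threshold on a measured value, from the 19729 genes in the data, and all of them had a value above 0 in every library. The cells were HT-29, a colorectal cancer cell line that the labels give as microsatellite stable (MSS), BRAF-V600E and APC-mutant. RNA was sequenced from cells in which doxycycline (DOX) induces an shRNA directed at APC (APC shRNA) and from control cells with an inducible non-silencing shRNA (NonS). All cells were stably transduced with lentivirus, were used at passage 3 to 5 after transduction, and received 500 ng/ml DOX for 72 h, so that DOX exposure and transduction were shared by both groups. Each group was represented by biological duplicates, numbered I and II, which gave 4 libraries in all. Uninduced cells are not part of the comparison, and it rests on 1 cell line with 1 shRNA construct named per group.

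AREG and EREG are membrane-bound growth factors that are shed from the cell surface and bind EGFR, a receptor tyrosine kinase that signals through RAS, RAF and MEK to the kinase ERK. Active ERK induces genes that dampen the pathway, among them the dual-specificity phosphatases DUSP4 and DUSP6 and the Sprouty proteins, together with the ETS transcription factors ETV4 and ETV5. In the colon, EGFR signalling sustains growth of the epithelium, APC restrains Wnt/beta-catenin signalling, and a BRAF V600E protein drives MEK and ERK without RAS.

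The deposited values were whole numbers that behaved as rounded, length-scaled scores and not as read counts, so they are given below as scores without a unit of reads. Totals per library lay between 398338 and 413595, and the read depth behind them is unknown. APC itself was listed at 3 in NonS I and at 0 in the other 3 libraries, which is too low to check the silencing. The Wnt target AXIN2 was at 16 and 22 in NonS versus 124 and 178 in APC shRNA libraries (log2 difference 2.92, limma with Benjamini-Hochberg adjustment, adjusted p = 0.0452). NKD1, NOTUM and SP5, also Wnt targets, were called higher as well. All 12 colon epithelium markers were above 0 in at least 1 library, and their summed score was 4387 and 5438 in NonS and 4765 and 4961 in APC shRNA libraries. Of the 9 markers tested 0 were called higher and 1 lower, with 2 higher (KRT18 and VIL1) and 2 lower (LGALS4 and HNF4A) at an unadjusted p under 0.05. Over all genes tested, 4.33% were called higher and 3.7% lower, and 35.6% had an unadjusted p under 0.05. In a second fit over genes with a total of at least 1, 0 of the 12 markers were called higher and 3 lower (LGALS4, CDX1 and CEACAM5). In that fit 7.44% of all genes were called higher and 4.02% lower. CEACAM5 was at 10 and 11 in NonS versus 3 and 3 in APC shRNA libraries. LGALS4, called in both fits, fell from 557 and 646 to 175 and 147 (log2 difference -1.90, adjusted p = 0.0423, limma, first fit). CDX2 was at 0 in either NonS library and CDX1 in either APC shRNA library. Of 15 stromal, endothelial and immune markers, 13 were at 0 in every library, with a summed score of 754 and 912 in NonS and 617 and 858 in APC shRNA libraries that came from LYZ and CD68.

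AREG and PHLDA1 were the 2 of the 10 genes called higher upon APC silencing, at 2.71-fold and 3.43-fold, respectively. No gene of the group was called lower. Of the 10 genes, 5 had a mean score of at least 10 over the 4 libraries and entered the limma fit over 5376 genes, namely AREG, EREG, DUSP6, ETV4 and PHLDA1, and each of these already had a mean of at least 10 in NonS cells. In that fit 4.33% of all genes tested were called higher and 3.7% lower at an adjusted p under 0.05, or 8.04% in all. An unadjusted p under 0.05 was reached by 3 of the 5 genes, all of them higher, beside 35.6% of all genes tested in either direction. EGFR, DUSP4, SPRY2, SPRY4 and ETV5 lay under the mean of 10 and were tested in a second limma fit over 12799 genes with a total of at least 1, where AREG and PHLDA1 were again called and none of the other 8 genes was. In the second fit 7.44% of the genes were called higher and 4.02% lower. All calls compare whole cultures, in which fewer cells with a transcript and less transcript per cell cannot be told apart.

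**Figure D1:**
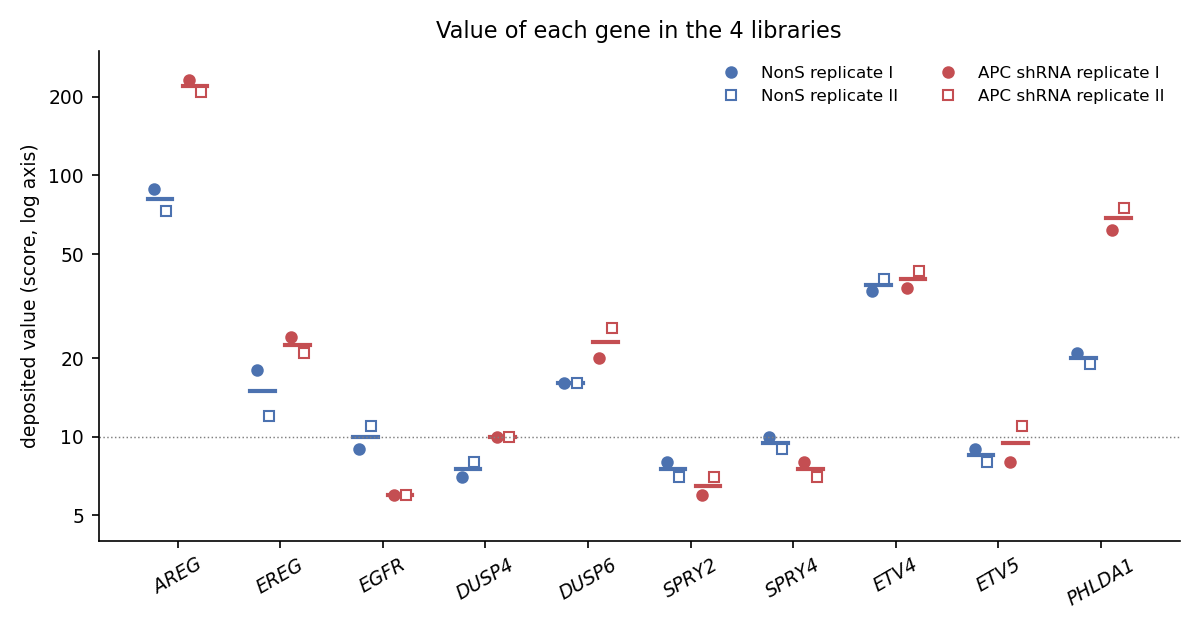
Deposited score of each gene (log axis, no unit) in the 4 libraries, with NonS in blue, APC shRNA in red, replicate I as filled circles, replicate II as open squares and short bars for group means; the dotted line marks the mean of 10 required for the first fit. AREG (73 to 89 against 208 to 231) and PHLDA1 (19 to 21 against 62 to 75) show the widest gaps between the groups.

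AREG, which encodes amphiregulin, lies on the plus strand at chr4:74445134-74455009 (GRCh38, GENCODE v29). The NonS duplicates had scores of 89 and 73, against 231 and 208 for the APC shRNA duplicates. Both APC shRNA libraries were above both NonS libraries, and the lowest APC shRNA value exceeded the highest NonS value. The mean rose from 81.0 ± 11.3 to 219.5 ± 16.3 (SD, n = 2 each), and AREG moved from rank 655 to rank 196 when all 19729 genes were ordered by their group mean. On the log2(score + 1) scale, which understates changes of low genes, the difference was 1.43 with an SE of 0.14 and a 95% interval of 1.01 to 1.86 (limma, adjusted p = 0.0452). With any of the 4 libraries left out (NonS I, NonS II, APC shRNA I or APC shRNA II), the difference stayed between 1.29 and 1.57, but the adjusted p was 0.181 to 0.211. In each of these fits limma called 0 of the 5376 genes tested, although 1119 to 1330 genes had an unadjusted p under 0.05.

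EREG encodes epiregulin and lies close to AREG on the same strand, at chr4:74365143-74388751. Its score was 18 and 12 in NonS and 24 and 21 in APC shRNA libraries, so that the groups did not overlap, yet the NonS duplicates lay further apart than the nearest values of the 2 groups (18 and 21). The means were 15.0 ± 4.24 and 22.5 ± 2.12 (SD, n = 2 each), a 1.5-fold difference that did not pass the test (log2 difference 0.58, SE 0.24, 95% interval -0.15 to 1.31, limma, adjusted p = 0.199). EREG has a GC content of 36.1% against 45.3% for AREG. After correction of each library for GC content, the EREG difference was 0.91 and was called (limma, adjusted p = 0.0162), and the part of GC content in the uncorrected value was not tested. At these scores an EREG difference between a slight fall and a 1.31 log2 rise was not resolved.

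The promoter windows of both ligand genes are shown because the genes are neighbours whose scores differed in how far they moved. They span 250 bases before to 50 bases after the annotated start (RefSeq, GRCh38.p14), chr4:74444886-74445185 for AREG and chr4:74364895-74365194 for EREG, both plus strand, and their starts are 79991 bases apart. Capitals mark the letters TGACGTCA of a cAMP response element and CCGGAA, a form of ETS site. The shorter ETS core GGAA, which occurs in both windows, was not searched for by itself.
AREG promoter: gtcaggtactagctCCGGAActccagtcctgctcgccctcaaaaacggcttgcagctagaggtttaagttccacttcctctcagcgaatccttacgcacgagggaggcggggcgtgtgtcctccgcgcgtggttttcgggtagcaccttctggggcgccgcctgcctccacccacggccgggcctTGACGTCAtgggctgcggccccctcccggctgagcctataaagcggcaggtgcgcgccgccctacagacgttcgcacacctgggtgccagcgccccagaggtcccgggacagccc
EREG promoter: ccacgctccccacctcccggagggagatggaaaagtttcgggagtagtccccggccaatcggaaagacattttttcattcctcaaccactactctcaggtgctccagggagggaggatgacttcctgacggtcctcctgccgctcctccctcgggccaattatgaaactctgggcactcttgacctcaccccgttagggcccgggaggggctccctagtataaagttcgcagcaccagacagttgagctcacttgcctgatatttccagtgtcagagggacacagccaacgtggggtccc
The TGACGTCA in the AREG window lies at -65 to -58 from the start and the CCGGAA at -236 to -231. These letters occurred on either strand in 1.85% and 17.2% of all 35116 promoter windows, respectively. The EREG window held neither, and the TCF/LEF letters CTTTGAT, found in 2.62% of all windows, were in none of the 10 windows of the 7 genes that have one (AREG, EREG, EGFR, DUSP6, SPRY2, SPRY4 and PHLDA1). The letters TGANTCA of an AP-1 site, present in 7.71% of all windows, occurred in 1 of these 10 windows, that of a second EGFR start, with matches at -232 to -226 and at -136 to -130. The CIC octamers TGAATGAA and TGAATGGA (2.63% of all windows) and the CArG box bound by serum response factor (1.29%) had no match in the 10 windows.

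The receptor gene itself had lower scores upon APC silencing, without passing the test. EGFR (chr7:55019021-55211628, plus strand) was at 9 and 11 in NonS versus 6 and 6 in APC shRNA libraries. Both APC shRNA libraries were below both NonS libraries. The means were 10.0 ± 1.41 and 6.0 ± 0 (SD, n = 2 each), so the NonS mean was 1.67 times the APC shRNA mean, and rounding of the scores alone allows an APC shRNA to NonS ratio of 0.524 to 0.684. In the second fit the log2 difference was -0.65 (SE 0.12, 95% interval -1.07 to -0.22), with an adjusted p of 0.107 (limma, unadjusted p = 0.0196), and EGFR was not called. It was called without NonS I and without NonS II, with differences of -0.78 and -0.51. Those calls rest on the APC shRNA values, which are tied at 6 as whole numbers and left no measured spread. EGFR was not called without APC shRNA I or APC shRNA II.

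DUSP4 encodes a nuclear phosphatase that inactivates ERK and other MAP kinases, and lies on the minus strand at chr8:29333064-29350668. DUSP4 was at 7 and 8 in NonS versus 10 and 10 in APC shRNA libraries, and the groups did not overlap. Its mean went from 7.5 ± 0.707 to 10.0 ± 0 (SD, n = 2 each), a ratio of 1.33 that rounding widens to 1.19 to 1.5, and the difference did not pass the second fit (log2 difference 0.37, 95% interval 0.10 to 0.65, limma, adjusted p = 0.126). As for EGFR, the call depended on which library was left out. DUSP4 was called without NonS I or NonS II (differences 0.29 and 0.46), where the APC shRNA values tied at 10 left no measured spread. It was not called without APC shRNA I or APC shRNA II.

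DUSP6, the cytoplasmic phosphatase with high selectivity for ERK, lies at chr12:89347232-89353271 (minus strand). It had a score of 16 in both NonS libraries and of 20 and 26 in the APC shRNA libraries. APC shRNA replicate II was the higher of the APC shRNA pair, and both were above NonS. The means were 16 ± 0 and 23.0 ± 4.24 (SD, n = 2 each), a 1.44-fold difference, with a log2 difference of 0.49 (SE 0.15, 95% interval 0.01 to 0.96). This did not pass adjustment over all genes (limma, adjusted p = 0.134, unadjusted p = 0.0464). DUSP6 shares 1875 exonic bases with AC024909.2 on the opposite strand, and the setting for strand in the counting is not given in the sources used here.

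The Sprouty genes had lower or overlapping scores upon APC silencing, and neither was called. SPRY4 (chr5:142310427-142326455, minus strand), an inhibitor of RAS activation downstream of receptor tyrosine kinases, was at 10 and 9 in NonS versus 8 and 7 in APC shRNA libraries. The APC shRNA libraries were the lower pair without overlap, with means of 9.5 ± 0.707 and 7.5 ± 0.707 (SD, n = 2 each). The NonS mean was 1.27 times the APC shRNA mean, and the log2 difference of -0.31 (95% interval -0.66 to 0.05) was not called (limma, second fit, adjusted p = 0.219). SPRY2 (chr13:80335976-80340951, minus strand), which acts at the same level of the pathway, was at 8 and 7 in NonS versus 6 and 7 in APC shRNA libraries. The groups shared the value 7, and the log2 difference was -0.18 (95% interval -0.60 to 0.24, limma, second fit, adjusted p = 0.480).

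ETV4 and ETV5 encode ETS transcription factors of the PEA3 family. ETV4 (chr17:43527844-43579620, minus strand) was at 36 and 40 in NonS versus 37 and 43 in APC shRNA libraries. The groups overlapped, with means of 38 ± 2.83 and 40.0 ± 4.24 (SD, n = 2 each). Its log2 difference was 0.07 (SE 0.11, limma, adjusted p = 0.680), and the 95% interval of -0.28 to 0.42 bounds the difference more tightly than for any other of the 5 genes in the first fit. ETV5 (chr3:186046308-186110318, minus strand) was at 9 and 8 in NonS versus 8 and 11 in APC shRNA libraries. The values overlapped here too, and the interval of the log2 difference was wide (0.13, 95% interval -0.58 to 0.85, limma, second fit, adjusted p = 0.719). The sign of ETV4 turned with GC correction and without APC shRNA replicate II, and that of ETV5 turned without the same library. ETV5 shares 164 exonic bases with DGKG on the same strand, and reads from that stretch cannot be assigned to 1 of the 2 genes.

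PHLDA1 encodes a pleckstrin homology-like domain protein that is induced by growth factor and ERK signalling. It lies on the minus strand at chr12:76025447-76033932. The score was 21 and 19 in NonS and 62 and 75 in APC shRNA libraries. All APC shRNA values lay far above the NonS values, and the spread within either group was small beside the gap. With means of 20 ± 1.41 and 68.5 ± 9.19 (SD, n = 2 each), PHLDA1 rose 3.43-fold, with bounds from rounding of 3.32 to 3.54. It went from rank 3074 to rank 802 of all genes. The log2 difference was 1.72 (SE 0.13, 95% interval 1.32 to 2.13), with an adjusted p of 0.0423 (limma). That was the smallest adjusted p in the first fit, but other genes shared it. Among them JUN, NKD1, NOTUM, SP5 and LGALS4 each had a smaller unadjusted p than PHLDA1. Without NonS I, NonS II, APC shRNA I or APC shRNA II in turn, the difference was 1.59 to 1.86 and the adjusted p 0.148 to 0.208. PHLDA1 overlaps AC011611.4 on the opposite strand over 779 exonic bases.

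The PHLDA1 promoter window is shown as that of the gene with the largest rise among the 10. It is chr12:76031727-76032026 on the minus strand (RefSeq, GRCh38.p14), with the complement of an ETS core (TTCCGG, at -89 to -84) in capitals.
PHLDA1 promoter: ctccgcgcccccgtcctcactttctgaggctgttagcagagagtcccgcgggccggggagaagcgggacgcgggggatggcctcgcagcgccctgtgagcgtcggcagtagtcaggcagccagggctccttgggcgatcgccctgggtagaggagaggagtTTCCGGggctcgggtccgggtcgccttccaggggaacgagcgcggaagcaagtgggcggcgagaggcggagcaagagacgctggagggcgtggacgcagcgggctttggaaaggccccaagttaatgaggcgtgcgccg
The letters CCGGAA were found on either strand in 3 of the 10 windows, those of AREG and PHLDA1 and 1 window of SPRY2 (-142 to -137). Shorter ETS cores were not counted. The presence of CCGGAA in 17.2% of all windows leaves this a description of the letters.

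**Figure D2:**
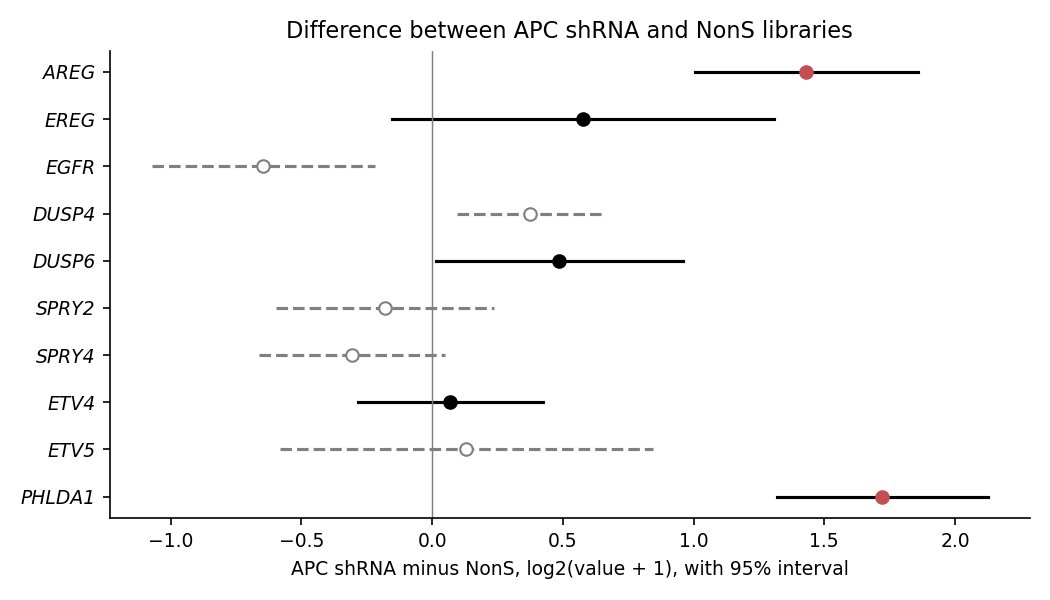
Difference between APC shRNA and NonS libraries on the log2(score + 1) scale with its 95% interval, from the first limma fit (solid lines) or, for the 5 genes with a mean under 10, from the second (dashed grey lines, open circles). Red marks an adjusted p under 0.05; AREG (1.43) and PHLDA1 (1.72) stand to the right, while the intervals of EREG, SPRY2, SPRY4, ETV4 and ETV5 include 0.

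In the order of levels, AREG was the highest of the 10 genes in every library, and the scores behave as scaled to transcript length. In NonS cells ETV4 followed (36 and 40), then PHLDA1 (19 and 21), DUSP6 (16 and 16) and EREG (12 and 18). DUSP6 and EREG overlapped and were not separated, nor were EGFR, SPRY4, ETV5, DUSP4 and SPRY2, which lay between 7 and 11 with each overlapping its neighbour. In APC shRNA cells PHLDA1 (62 and 75) stood above ETV4 (37 and 43), which reversed their order, while DUSP6 (20 and 26) and EREG (21 and 24) again overlapped. At the low end the mean was now highest for DUSP4, whose values of 10 and 10 overlapped with ETV5 (8 and 11), and lowest for EGFR, which (6 and 6) was not separated from SPRY2 (6 and 7).

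Groups did not overlap in 7 of the 10 genes, with APC shRNA above NonS in 5 and below in 2. Among the 12799 genes of the second fit the groups did not overlap with APC shRNA above in 25.9% and below in 19.1%, or 45% in all, so that absence of overlap is common in these libraries. The median log2 difference of the 10 genes was 0.25, beside 0 over all genes of the second fit. For a single gene, the exact two-sided permutation test over 2 against 2 libraries cannot go below p = 0.333, which is the value obtained for all 7 genes without overlap. The difference between replicates was largest for EREG in NonS cells (-0.55, II minus I on the log2 scale) and for ETV5 in APC shRNA cells (0.42), whereas AREG and PHLDA1 differed by at most 0.28 between replicates of either group.

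**Figure D3:**
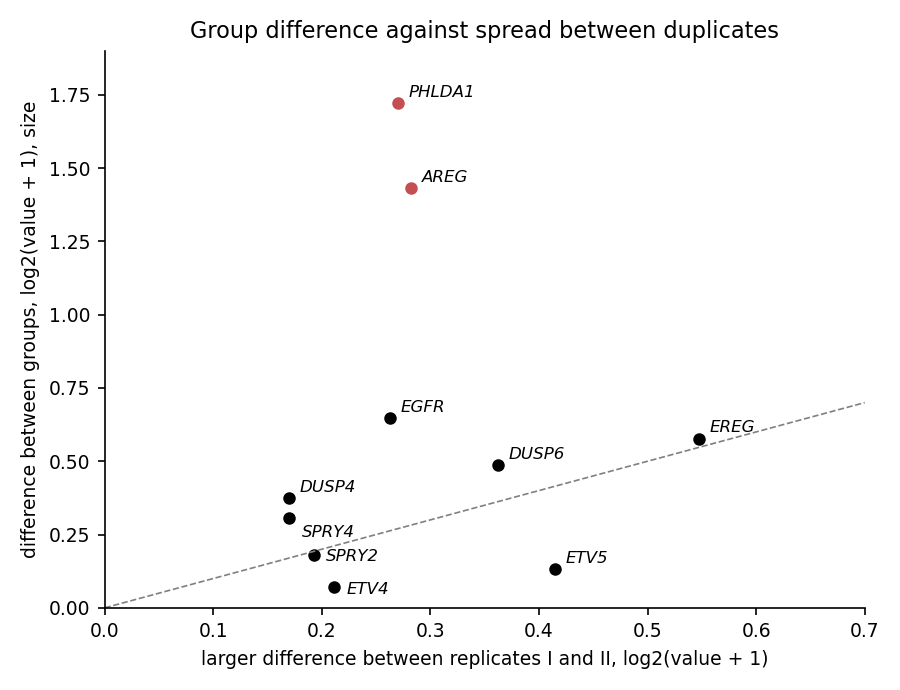
Size of the group difference (y axis, log2(score + 1)) against the larger of the 2 differences between replicates I and II (x axis, same scale), 1 point per gene; the dashed line marks equality and red marks genes called. PHLDA1 and AREG lie far above the line, EREG (0.58 against 0.55) lies close to it, and SPRY2, ETV4 and ETV5 lie under it.

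Other genes of the pathway were taken from 5 lists that together hold 75 genes, of which 31 passed the mean of 10. In limma 2 of the 31 were called higher and 0 lower, and 4 were higher and 3 lower at an unadjusted p under 0.05, against 4.33% called higher, 3.7% called lower and 35.6% at an unadjusted p under 0.05 among all genes tested. In the second fit 65 of the 75 genes were tested, and 5 were called higher and 3 lower. Over all genes of that fit, 7.44% were called higher and 4.02% lower. Called higher in the lists were JUN, BTC, KSR1, DUSP10 and SPRY3, and called lower were FOS, DUSP2 and UPP1. All of these but JUN and FOS had scores of a few units, with duplicates tied by rounding.

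Among the 9 other ligands of ERBB receptors, none passed the mean of 10. EGF, EPGN, NRG1, NRG2, NRG3 and NRG4 were listed at 0 in every library. TGFA, a further EGFR ligand named here after its values were seen, was at 10 and 12 in NonS versus 7 and 10 in APC shRNA libraries, so the groups overlapped at 10. HBEGF and BTC were at 2 or 3 in every library. AREG therefore had the highest score of all 11 ligand genes in each library, and EREG was the next highest in each except NonS II, where it tied with TGFA at 12.

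Of 7 other receptors and genes that govern ligand shedding, 3 were tested and limma called 0, also at an unadjusted p under 0.05. ERBB2, the co-receptor without a ligand of its own, was at 37 and 47 in NonS versus 50 and 55 in APC shRNA libraries (log2 difference 0.32, adjusted p = 0.235). ERBB3, the kinase-impaired partner of ERBB2, overlapped between groups (46 and 61 against 50 and 58). RHBDF1, an inactive rhomboid that takes part in maturation of the sheddase ADAM17, was at 50 and 63 in NonS versus 67 and 68 in APC shRNA libraries (log2 difference 0.26, adjusted p = 0.275). Thus EGFR had lower scores than ERBB2 and ERBB3 in every library, and ERBB4 was listed at 0 throughout.

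The RAS-ERK cascade itself, from adaptor proteins to ERK and its kinase targets, had 11 of 19 genes tested. Limma called 0 of them, with 0 higher and 2 lower at an unadjusted p under 0.05 (35.6% of all genes tested), and their median log2 difference was -0.19 beside 0.03 over all genes tested. MAPK3, which encodes ERK1, was at 19 and 23 in NonS versus 12 and 13 in APC shRNA libraries (log2 difference -0.70, adjusted p = 0.0673), and was called lower under each of 3 other scalings (adjusted p 0.0326 to 0.0398, limma). RPS6KA1, an ERK-activated kinase, was at 25 and 28 against 20 and 21 (log2 difference -0.35, adjusted p = 0.0943). In neither gene did the groups overlap. PTPN11, the phosphatase SHP2 (33 and 24 against 25 and 13), and MAP2K1, the kinase MEK1 (31 and 38 against 24 and 31), did overlap.

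Of 18 other negative regulators 6 were tested, and limma called 0 of them, with 2 higher and 0 lower at an unadjusted p under 0.05 (35.6% of all genes tested). RASA1, a RAS GTPase-activating protein, had the largest difference (19 and 12 in NonS, 9 and 4 in APC shRNA libraries, log2 difference -1.19) but varied widely between replicates (adjusted p = 0.192). LRIG1, which promotes degradation of EGFR, was at 8 and 9 in NonS versus 11 and 13 in APC shRNA libraries (log2 difference 0.45, adjusted p = 0.109). CIC, the repressor of ETV4 and ETV5 that ERK inactivates, was at 15 and 17 against 20 and 19 (log2 difference 0.27, adjusted p = 0.140). ERRFI1, an inhibitor of the EGFR kinase, overlapped between groups (26 and 20 against 21 and 20).

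Among 22 other ERK output genes 11 were tested, and JUN and CCND1 were called higher while 0 were called lower, with 2 higher and 1 lower at an unadjusted p under 0.05 (35.6% of all genes tested). JUN, a subunit of the transcription factor AP-1, rose from 21 and 23 in NonS to 66 and 72 in APC shRNA libraries (log2 difference 1.61, SE 0.09, limma, adjusted p = 0.0423). CCND1, which encodes cyclin D1, rose from 28 and 26 to 65 and 84 (log2 difference 1.42, SE 0.16, adjusted p = 0.0465), a call that was lost in the second fit (adjusted p = 0.0588) and with a replicate block (0.0521). As for every gene of the first fit, these calls were lost without NonS I, NonS II, APC shRNA I or APC shRNA II (adjusted p 0.148 to 0.208 for JUN and 0.148 to 0.231 for CCND1). JUN rose by 3.14-fold and CCND1 by 2.76-fold, between the sizes given for AREG and PHLDA1 above. Both are also known as targets of Wnt signalling, which these data do not separate from ERK. For AREG and PHLDA1, too, the parts of Wnt and ERK signalling cannot be told apart in this comparison.

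The other output genes named in the first fit were not called. FOSL2, another AP-1 subunit, was at 11 and 13 in NonS versus 16 and 22 in APC shRNA libraries (log2 difference 0.61, adjusted p = 0.145). PLAUR, the urokinase receptor, was at 17 and 27 against 9 and 12 (log2 difference -0.98, adjusted p = 0.131). ZFP36, an immediate early gene for an RNA-binding protein, was at 42 and 59 against 29 and 36 (log2 difference -0.61, adjusted p = 0.182), and JUNB overlapped between groups. FOS, the immediate early partner of JUN, had a mean under 10 and is named after its values were seen. It was at 16 and 13 in NonS versus 3 and 3 in APC shRNA libraries, the latter tied as whole numbers. FOS fell by 1.95 on the log2 scale in the second fit (limma, adjusted p = 0.0180). The call was lost without APC shRNA I or APC shRNA II, and with a replicate block (limma, adjusted p = 0.0773 with the block).

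**Figure D4:**
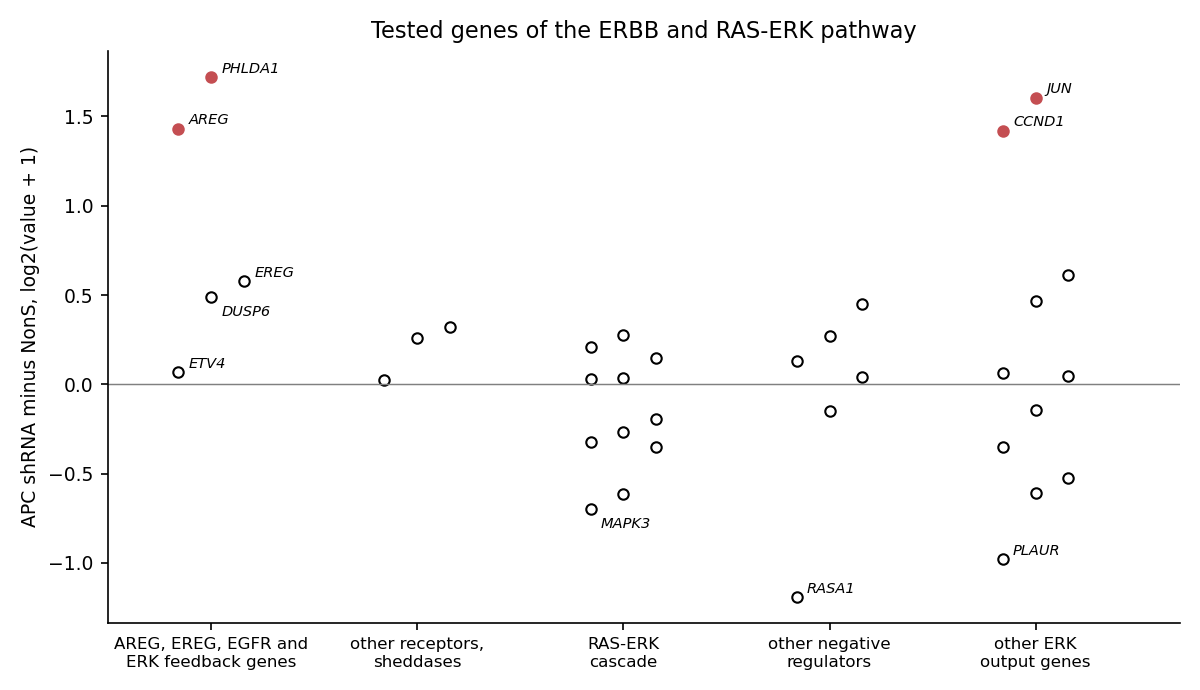
Difference between APC shRNA and NonS libraries (y axis, log2(score + 1), first limma fit) for each tested gene, 1 circle per gene, grouped by list along the x axis; red filled circles have an adjusted p under 0.05. PHLDA1, AREG, JUN and CCND1 are the called genes, and all other circles but RASA1 (-1.19) and PLAUR (-0.98) lie between -0.70 and 0.61.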

How the data were processed

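RNA-Seq was performed on HT-29 cells with NonS or APC shRNA, in duplicates, and libraries were grouped by their labels. According to the methods, the authors filtered reads by quality, trimmed polyA tails, mapped them with TopHat2 to human assembly 38 and counted them per gene with htseq-count and GENCODE v29; the processing notes of the submitters list hg19, bcl2fastq 2.19.0.316 and DESeq2 1.4.1. The deposited per-gene values were whole numbers treated as a score, because in genes with a duplicate sum of 10 to 39 the variance was 0.496 (NonS) and 0.345 (APC shRNA) times that of independent counts, and because the sum of score times longest transcript length in kb lay between 980841 and 984873 in every library. No count model was used. A deposited table of the comparison made by the authors (fold changes and adjusted p-values) was not used.

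Gene identifiers were matched to GENCODE v29 (19502 of 19729), from which coordinates were taken. Differences in log2(score + 1) were tested with limma 3.58.1 in R 4.3.3 (lmFit, eBayes with a mean-variance trend) over genes with a mean of at least 10, and in a second fit over genes with a total of at least 1, each adjusted by Benjamini-Hochberg and read at a threshold of 0.05. Intervals are 95% intervals for 1 gene from that fit, and p-values measure the spread between these duplicates only. On simulated scores for this comparison (5376 genes), 37.5% of genes with a 2-fold and 71.5% with a 4-fold change were recovered. Of 200 changed genes in each case, 75 and 143 were called, beside 6 and 15 unchanged genes. The simulated noise was independent between libraries, whereas the replicate differences of the data correlated between groups (r = 0.724).

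The 10 genes and all lists were chosen with earlier results of these data known. Every one of the 10 is named. From each list the genes called in the first fit are named, with up to 4 of the largest absolute difference among those tested there. Genes of the pathway lists called in the second fit are named as well. TGFA and FOS were described further after their values were seen. Alternatives covered scaling, pseudocount, filter, GC content, replicate number as a block, moderation, threshold and each library left out.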

Additional observations from a re-analysis of the deposited data

How the results depend on the processing

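AREG and PHLDA1 were called under all alternatives but those that left out 1 library and the stricter threshold, with log2 differences of 1.39 to 1.51 for AREG and 1.55 to 1.83 for PHLDA1 where called. In the first fit, leaving out any 1 library gave 0 to 0 called for the 10 genes, for all genes tested in either direction and for the 5 pathway lists. In the second fit EGFR, DUSP4 and FOS were called without either NonS library but not without either APC shRNA library. Their APC shRNA duplicates are tied as whole numbers, so without a NonS library no spread was measured for these genes. Those calls rest on the tie and do not bear on the differences. The lone library of a group is then assumed to vary like the others. The adjusted p under 0.01 with a fold over 4 also called 0 of the 10 genes, 0 genes higher, 0 lower, and 0 of the lists higher. The smallest adjusted p of the first fit (limma) was 0.0423, so no gene of any size could pass this threshold. The replicate numbers gave only 2 pairs and no label says that they mark a batch, although the differences II minus I correlated between groups across genes (r = 0.724). With a replicate block, 523 genes were called higher and 500 lower, beside 233 and 199 without it. The replicate block with GC correction called 4 of the 10 genes, adding EREG and DUSP6 (adjusted p = 0.00235 and 0.0172, limma), and 1269 genes higher and 1274 lower. GC correction alone gave 438 higher and 453 lower. Median-of-ratios scaling gave 373 higher and 405 lower, scaling to equal totals 343 higher and 369 lower, robust moderation 368 higher and 352 lower, and an adjusted p under 0.10 gave 731 higher and 600 lower. The filter of a total of at least 1 gave 952 higher and 515 lower, and that of at least 10 in every library 139 higher and 134 lower. In the 5 lists, the higher calls went from 2 to 5 with a total of at least 1 and to 6 with block and GC correction. Their lower calls went from 0 to 1 under each of the 3 scalings and robust moderation, to 2 with the block and with an adjusted p under 0.10, to 3 with GC correction and with a total of at least 1, and to 10 with block and GC correction. ETV4 turned to -0.0381 with GC correction, with and without the block, and ranged from -0.0356 to 0.176 with 1 library left out, while ETV5 ranged from -0.076 to 0.339, both turning without APC shRNA replicate II. Of the other genes named, ERBB3 turned to -0.0113 with median-of-ratios scaling, -0.0061 with equal totals and -0.0376 with GC correction, with and without the block, and ranged from -0.177 to 0.223 with 1 library left out, where ERRFI1 ranged from -0.329 to 0.0336. MAPK3 was called lower under the 3 scalings, GC correction, the block and robust moderation (limma, adjusted p 0.0196 to 0.0479). PLAUR and RPS6KA1 were called lower with GC correction, and PLAUR and LRIG1 with the block, LRIG1 as higher. The block with GC correction called these genes and also ERBB2 and FOSL2 higher and MAP2K1, RASA1, ZFP36 and JUNB lower (adjusted p 0.00265 to 0.0465). The causes were not tested. Whole-number scores limit the genes near 10, and the depth in reads behind them is unknown.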
